A study of Mus musculus with 9 samples.

Results

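Actr10, Psma3, Arid4a and Timm9 lie next to each other on mouse chromosome 12, and their hypothalamic expression was followed library by library in Clic1 knockout (KO) and wild-type (WT) mice. These 4 genes, of 14351 in the expression table, were chosen with their KO against WT differences already known. Those differences are therefore given as a description, with no test. Within a span of 199 kb (GRCm38, chr12:70937857-71136684), Actr10 and Timm9 at its 2 ends were higher in each KO library than in each WT library, by 1.33-fold and 1.43-fold in the group means. In Psma3 and Arid4a, which lie between them, the KO and WT libraries overlapped, and the highest value of both came from a single KO library.

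Actr10 encodes the actin-related protein at the pointed end of dynactin, the complex through which the motor dynein takes up cargo and carries it toward the minus end of microtubules. In neurons this is the motor of retrograde axonal transport. Timm9 encodes a small chaperone of the space between the mitochondrial membranes, which together with Timm10 escorts hydrophobic carrier proteins to the inner membrane. Psma3 encodes an alpha subunit of the proteasome core, and Arid4a a chromatin protein that binds RB and the SIN3 histone deacetylase complex.

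RNA was taken from the hypothalamus of mice fed normal chow, with 1 library per mouse. The KO mice lacked Clic1, a chloride intracellular channel protein, in the whole body, and the WT controls were their littermates. The labels describe all mice as males of the strain C57b/6J, whereas the study's methods place the Clic1 line on a CD-1 background. The age of these mice and the design of the deleted allele are not given in the sources used here. KO libraries were replicates 2, 4, 6, 8 and 10 (n = 5), and WT libraries were replicates 1, 3, 9 and 11 (n = 4). Replicate 10 carries conflicting labels, since its title and treatment call it WT and its description names it K10. It was placed with the KO libraries by its description, and the values of the 4 genes and the counts over lists and neighbours are given with and without it. Values per library are listed below in the order just given, so that replicate 10 is the last of the KO values. Because whole tissue was sequenced, fewer cells of a type and less RNA per cell cannot be told apart.

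Clic1 itself was measured at 0.733 to 1.93 normalized CPM (counts scaled to library size) across the KO libraries, below the 3.58 to 5.52 CPM of the WT libraries. Its log2 difference was -1.80 ± 0.27 (SE), with an adjusted p of 0.0153 by limma, which rose to between 0.0702 and 0.0893 when WT replicate 1, 3 or 9 was left out and was 0.00494 without KO replicate 10. The value of replicate 10, 1.43 CPM, lay within the range of the other KO libraries. All 12 hypothalamic peptide genes of a marker list were measured, and their summed level ran from 743 to 1005 CPM in KO libraries and from 659.9 to 749.6 CPM in WT libraries, the highest sum being that of replicate 10. Of these 12 genes, 1 (Avp, vasopressin) passed the limma test. Of 6 adipocyte markers, looked at because 1 label names an adipose tissue protocol, the defining genes Adipoq, Plin1, Fabp4, Lep and Cfd were not in the table, and Lipe was at 13.9 to 17.9 CPM in KO libraries and 14.4 to 19.0 CPM in WT libraries. No measured gene of the other marker lists, of neurons, astrocytes, oligodendrocytes, microglia, endothelium, ependymal cells and choroid plexus, passed the limma test. Of 5 choroid plexus markers 3 were measured, and Ttr and Folr1 were not in the table. The 5 endothelial markers summed to 177 to 199.7 CPM in the KO libraries, above the 162 to 176 CPM of the WT libraries, and their part in the results was not tested. Estimated depth on the table's genes was 5.47 to 20.8 M reads in KO (median 7.56 M) and 7.28 to 11 M reads in WT (median 9.81 M). Replicate 10 was the deepest KO library, and without it the KO libraries reached 7.71 M at most. Replicate 10 also stood apart in expression, with values above or below those of all 8 other libraries in 58.5% of genes. For each of the other libraries that share was 11.4% to 21.8%.

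The annotation (GENCODE mouse release 21 on GRCm38) places 6 genes in the 199 kb, and 4 of them were measured. Actr10 (ENSMUSG00000021076, chr12:70937857-70964718), Psma3 (ENSMUSG00000060073, chr12:70974621-70996347) and Arid4a (ENSMUSG00000048118, chr12:71015990-71098592) are read from the plus strand, with gaps of 9.9 and 19.6 kb between them. Timm9 (ENSMUSG00000021079, chr12:71123173-71136684) follows after 24.6 kb on the minus strand. Its annotated start lies 163 bases from the start of 2700049A03Rik, a cilium gene also known as Talpid3, which is read in the opposite direction. The other 2 annotated genes, Tomm20l and 3110056K07Rik, were not among the genes of the expression table.

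The sequences upstream of Actr10, Psma3 and Timm9 are shown because neighbouring starts carried different KO and WT values in the same libraries. RefSeq windows on GRCm38.p6 were found for 3 of the 4 genes. Each sequence below is read from 5′ to 3′ on the gene's own strand and ends at the base before the RefSeq start. Capitals mark matches, on either strand, to 4 short motifs searched by their letters: the E-box CACGTG, the CCAAT box CCAAT, the GC box GGGCGG and the cAMP response element core TGACG. The Actr10 stretch is chr12:70937607-70937856 on the plus strand, the Psma3 stretch is chr12:70974373-70974622 on the plus strand, and the Timm9 stretch is chr12:71136676-71136847 on the minus strand. The last of these is cut to the 172 bases between the RefSeq start of Timm9 and the start of 2700049A03Rik.
Actr10: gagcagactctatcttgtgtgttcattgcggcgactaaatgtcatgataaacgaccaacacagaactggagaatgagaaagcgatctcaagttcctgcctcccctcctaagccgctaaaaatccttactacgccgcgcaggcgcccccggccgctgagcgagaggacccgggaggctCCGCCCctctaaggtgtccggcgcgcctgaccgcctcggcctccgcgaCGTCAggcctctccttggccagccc
Psma3: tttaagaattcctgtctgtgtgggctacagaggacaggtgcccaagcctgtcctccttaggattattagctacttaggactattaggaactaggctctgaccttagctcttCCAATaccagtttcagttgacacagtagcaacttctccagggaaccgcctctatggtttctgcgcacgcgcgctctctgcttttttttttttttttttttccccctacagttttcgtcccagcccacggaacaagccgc
Timm9: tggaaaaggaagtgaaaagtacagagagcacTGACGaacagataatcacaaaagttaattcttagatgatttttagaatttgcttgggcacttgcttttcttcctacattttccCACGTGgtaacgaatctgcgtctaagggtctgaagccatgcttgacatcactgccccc

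The 3 stretches differed in base composition. The Actr10 stretch was 61.2% G and C with 22 CpG dinucleotides, the Psma3 stretch 48.0% with 8, and the shorter Timm9 stretch 41.9% with 4. Actr10 had a GC box 73 bases before the start and a TGACG match 25 bases before it. Of 32851 RefSeq promoter windows of 250 bases, 32.7% held a GC box and 17.8% a TGACG match. Psma3 had a CCAAT box 139 bases before the start, as did 33.8% of all windows at any position. Timm9 had an E-box 58 bases before the start and a TGACG match 141 bases before it, which 4.71% and 14.5% of windows of 172 bases held. The TGACG match is the one motif found in both Actr10 and Timm9. These matches describe letters only.

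Actr10, the dynactin subunit, was measured at 109, 111, 111, 120.1 and 97.9 CPM in the KO libraries. In the WT libraries it was measured at 82, 75.7, 88.1 and 83.9 CPM. The groups did not overlap, and the lowest KO value was that of replicate 10. The means were 109.7 ± 7.9 CPM in KO (SD, n = 5) and 82.4 ± 5.14 CPM in WT (SD, n = 4). On the log2(CPM + 0.1) scale, which is used for all log2 differences here, KO minus WT was 0.41 ± 0.07 (SE). Without replicate 10 the KO mean was 113 ± 5.03 CPM (SD, n = 4), the fold 1.37 and the log2 difference 0.45 ± 0.06 (SE). An estimated 604 to 1980 reads lay behind each value, so that counting alone gives a coefficient of variation (CV) of 2.25% to 4.07%. The CV among libraries was 7.2% in KO and 6.24% in WT.

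Timm9, the mitochondrial import chaperone, was measured at 27.2, 26.8, 29.5, 30.8 and 28.3 CPM in the KO libraries, compared with 20.7, 20.3, 18.8 and 19.7 CPM in the WT libraries. Again the groups did not overlap, and here replicate 10 fell in the middle of the KO libraries. The means were 28.5 ± 1.67 CPM in KO (SD, n = 5) and 19.9 ± 0.831 CPM in WT (SD, n = 4). The log2 difference was 0.52 ± 0.08 (SE) with all libraries and 0.52 ± 0.08 (SE) without replicate 10. Timm9 was the least abundant of the 4 genes in CPM and rested on an estimated 143 to 573 reads per library, a counting CV of 4.18% to 8.36%. Its CV among libraries, 5.86% in KO and 4.18% in WT, was no larger than that counting range. Exons of Timm9 share 49 bases with exons of Tomm20l on the opposite strand, a gene that is not in the expression table. Whether reads were counted by strand is not given in the sources used here, so reads from that overlap cannot be assigned.

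Psma3, the proteasome subunit, was measured at 77.5, 81.8, 81.5, 84 and 123 CPM in the KO libraries. The WT values were 75.5, 79.1, 79.8 and 80 CPM. Replicate 10 was 51.1% above the mean of the other KO libraries, while those 4 overlapped the WT libraries. The group means, 89.5 ± 18.7 CPM (SD, n = 5) and 78.6 ± 2.08 CPM (SD, n = 4), gave a log2 difference of 0.17 ± 0.12 (SE). Without replicate 10 the KO mean was 81.2 ± 2.69 CPM (SD, n = 4), the fold 1.03 and the log2 difference 0.05 ± 0.05 (SE). The Psma3 transcripts have near-identical relatives. Gm13835 matched at 100% identity over 685 nt and Gm609 at 96.3% over 327 nt, and the authors' counting could have divided reads among these genes. Neither Gm13835 nor Gm609 was among the genes of the expression table. By the same measure, 95% identity over 300 nt or more, Actr10, Timm9 and Arid4a matched 0 other genes.

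Arid4a, the chromatin protein, was measured at 73.5, 73.4, 70.3, 70.7 and 96.7 CPM in the KO libraries, compared with 61.9, 69.4, 61.2 and 73.6 CPM in the WT libraries. Replicate 10 was again the highest library, 34.3% above the mean of the other KO libraries, and WT replicate 11 lay level with the highest of the remaining KO libraries. The means were 76.9 ± 11.1 CPM in KO (SD, n = 5) and 66.5 ± 5.98 CPM in WT (SD, n = 4), with a log2 difference of 0.20 ± 0.10 (SE). Without replicate 10 the KO mean was 72.0 ± 1.72 CPM (SD, n = 4) and the log2 difference 0.12 ± 0.07 (SE). The CV of the KO libraries was then 2.39%, against 8.99% in WT.

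**Figure D1:**
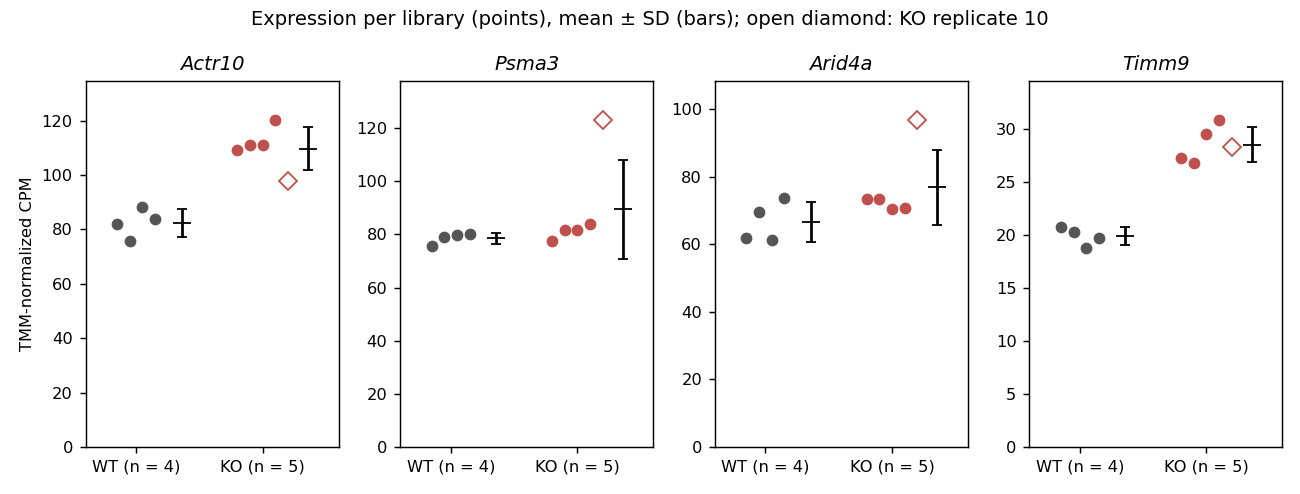
Normalized CPM of Actr10, Psma3, Arid4a and Timm9, in chromosomal order, with 1 point per library, bars for the mean ± SD beside each group, and an open diamond for KO replicate 10; each vertical axis starts at 0. Actr10 sits between 97.9 and 120.1 CPM in KO and no higher than 88.1 CPM in WT, whereas the KO range of Psma3 reaches from 77.5 to 123 CPM through replicate 10.

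The groups thus did not overlap in 2 of the 4 genes, both higher in KO. Among all 14351 genes, 240 (1.67%) were higher in every KO library than in every WT library, and 490 (3.41%) did not overlap in either direction. Without KO replicate 10 the same 2 genes did not overlap, where 2.86% of all genes were higher in every KO library and 6.06% did not overlap in either direction. Since the 4 genes were picked on this contrast, the count is given beside that background without being read against it. In the limma fit over the whole table, 41 genes (0.286%) passed an adjusted p of 0.05, and 87 (0.606%) did so without KO replicate 10.

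The position of replicate 10 differed between neighbouring genes. On the log2 scale it lay 0.60 above the mean of the other KO libraries in Psma3 and 0.43 above it in Arid4a, but 0.20 below it in Actr10 and 0.01 below it in Timm9. Grouped as WT, as its title says, replicate 10 would leave Actr10 with no overlap, because 97.9 CPM lies between the highest WT value of 88.1 and the lowest remaining KO value of 109 CPM. Timm9 would overlap, because 28.3 CPM lies inside the KO range. The log2 differences would then be 0.40 for Actr10, 0.42 for Timm9, -0.08 for Psma3 and 0.01 for Arid4a. Leaving out each library in turn gave 0.37 to 0.45 for Actr10 and 0.49 to 0.54 for Timm9. The same ranges were 0.05 to 0.21 for Psma3 and 0.12 to 0.25 for Arid4a, with the lowest value of both reached without KO replicate 10.

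**Figure D2:**
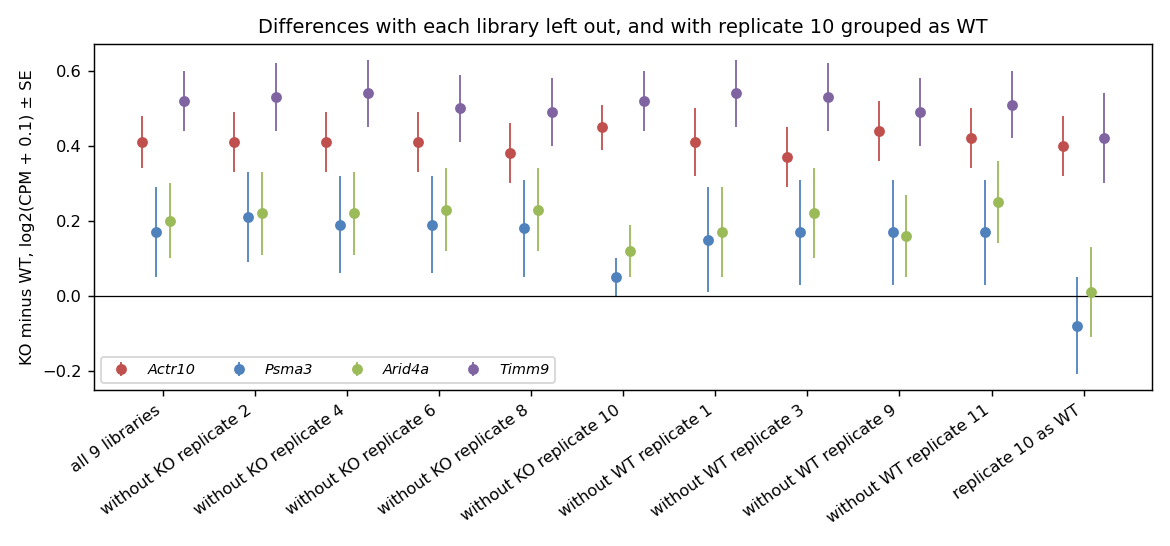
KO minus WT difference on the log2(CPM + 0.1) scale with its SE for the 4 genes, for all 9 libraries, with each library left out, and with replicate 10 grouped as WT. Actr10 stays between 0.37 and 0.45 and Timm9 between 0.42 and 0.54, while Psma3 moves from 0.17 to 0.05 without KO replicate 10 and to -0.08 with it as WT.

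Levels of the 4 genes can be compared with each other only per transcript length. In CPM per kb of the longest principal transcript, KO means were 31.5 ± 6.57 for Psma3, 28.8 ± 1.68 for Timm9, 27.3 ± 1.96 for Actr10 and 15.4 ± 2.23 for Arid4a (SD, n = 5). Without replicate 10 they were 28.5 ± 0.946, 28.8 ± 1.94, 28.0 ± 1.25 and 14.4 ± 0.344 in the same order (SD, n = 4), so that Psma3 no longer came first. The WT means were 27.6 ± 0.732, 20.1 ± 0.84, 20.5 ± 1.28 and 13.3 ± 1.2 in the same order (SD, n = 4). In WT, Psma3 at 26.5 to 28.1 CPM per kb stood above the other 3 genes. Actr10 (18.8 to 21.9) and Timm9 (19.0 to 20.9) overlapped each other, and Arid4a (12.2 to 14.7) stood below them. In KO the ranges of Psma3, Timm9 and Actr10 overlapped, from 24.3 CPM per kb in the lowest Actr10 library to 43.1 in the highest Psma3 library, and Arid4a remained lowest at 14.1 to 19.3. Without replicate 10 these 3 ranges also overlapped, and no Psma3 library exceeded 29.5 CPM per kb. The lengths used were 2.85 kb for Psma3, 0.99 kb for Timm9, 4.02 kb for Actr10 and 5.0 kb for Arid4a. Other transcripts were not tried, so the order of the genes holds for these lengths only.

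Ratios within a library do not depend on how that library was scaled. Actr10 over Psma3, 2 genes 9.9 kb apart on the same strand, was 1.41, 1.36, 1.36, 1.43 and 0.798 in the KO libraries and 1.09, 0.958, 1.10 and 1.05 in the WT libraries. The first 4 KO libraries lay above all WT libraries, and replicate 10 lay below them. Timm9 over 2700049A03Rik, which start 163 bases apart, was 1.59, 1.55, 1.87, 2.19 and 1.61 in KO and 1.40, 1.26, 1.26 and 1.21 in WT, with no overlap. Actr10 over Timm9 was 3.46 to 4.15 in KO and 3.73 to 4.69 in WT, and these ranges overlapped.

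The next genes outward were then examined. Within 1 Mb of the 4 genes, 12 others were measured, and none passed the limma test or an unadjusted p of 0.05. Over all genes, 0.286% passed the former and 6.5% the latter. The log2 differences of these 12 ranged from -0.12 to 0.15 with a median of -0.02, their lowest adjusted p was 0.857, and none had groups that did not overlap. Without KO replicate 10 the counts were also 0, and the differences ranged from -0.17 to 0.15. On the side of Actr10, Frmd6, a scaffold protein of the FERM family 0.0356 Mb away, had a log2 difference of -0.07 (95% interval -0.28 to 0.14). Tmx1, a thioredoxin-related protein of the endoplasmic reticulum, had -0.08 (95% interval -0.24 to 0.09). On the side of Timm9, 2700049A03Rik was measured at 16.4 ± 1.47 CPM in KO (SD, n = 5) and 15.5 ± 0.75 CPM in WT (SD, n = 4), a log2 difference of 0.07 (95% interval -0.14 to 0.29). Dact1, a regulator of Wnt signalling, had 0.15 (95% interval -0.16 to 0.45). The point estimates for Actr10 and Timm9, 0.41 and 0.52, lie above the upper bounds for Frmd6, Tmx1 and 2700049A03Rik, and that for Actr10 lies within the interval for Dact1. As the 4 genes were chosen with this contrast known, the step between them and their neighbours is a description.

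**Figure D3:**
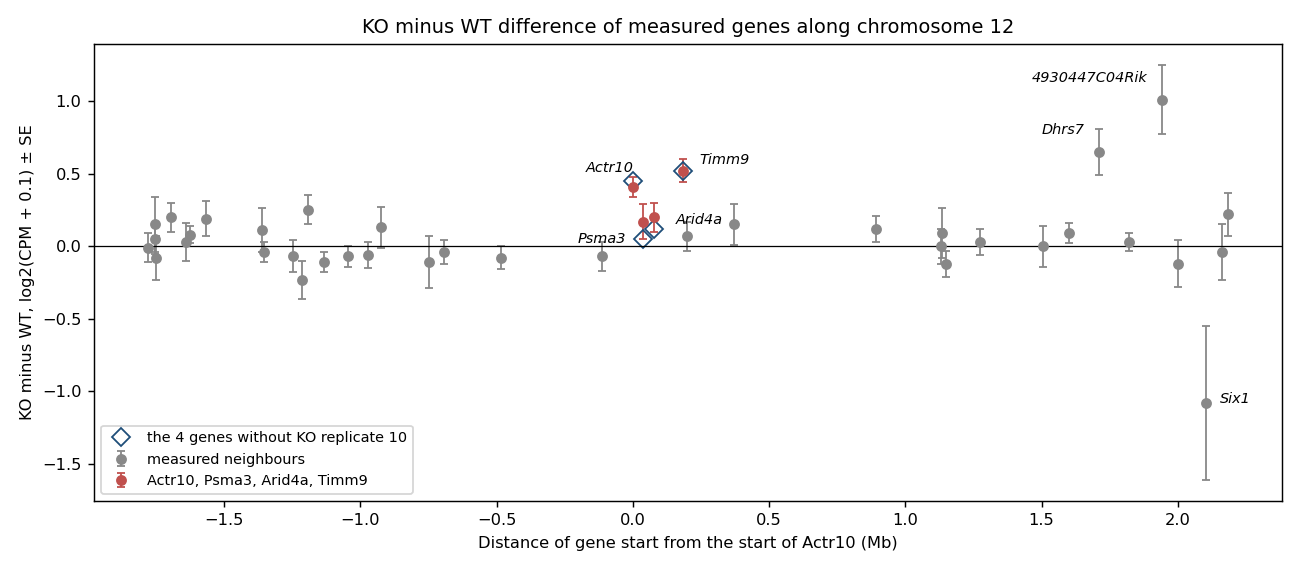
KO minus WT difference on the log2(CPM + 0.1) scale with its SE for each measured gene whose start lies within 2 Mb of the 4 genes, plotted against the distance of its start from that of Actr10 in Mb; red points are the 4 genes and open diamonds their values without KO replicate 10. Actr10 at 0.41 and Timm9 at 0.52 stand above the 12 neighbours within 1 Mb, which lie between -0.12 and 0.15.

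In wider windows, 3 of 37 genes within 2 Mb (8.11%) and 5 of 51 within 5 Mb (9.8%) had an unadjusted p under 0.05, against 6.5% of all genes. All of these were higher in KO, and none passed the adjusted threshold. Without KO replicate 10 the counts were 6 of 37 (16.2%) and 8 of 51 (15.7%), each with 1 gene lower in KO, against 10.5% of all genes, and 1 of the 51 passed the adjusted threshold. With all libraries, groups did not overlap in 3 of the 37 and 4 of the 51 genes, against 3.41% of all genes. Without KO replicate 10 they did not overlap in 6 and 7, against 6.06% of all genes. The 5 genes of the 51 with an unadjusted p under 0.05 with all libraries were named after their values were seen. Slc38a6, a member of an amino acid transporter family 2.15 Mb away, was measured at 33.5, 30.2, 31.3, 33.9 and 24.7 CPM in the KO libraries, compared with 19.5, 11.4, 21.6 and 10.1 CPM in the WT libraries. Its log2 difference was 1.04 ± 0.21 (SE) with a limma adjusted p of 0.0949, and 0.00966 without KO replicate 10. The gene 4930447C04Rik, also known as Six6os1 and coding for a protein of the meiotic synaptonemal complex, lies 1.74 Mb away and overlaps Six6 on the opposite strand, so reads from the overlap cannot be assigned. It was measured at 30.8, 26.4, 26.0, 30.6 and 27.7 CPM in KO and at 20.3, 9.64, 21.2 and 9.1 CPM in WT, with a log2 difference of 1.01 ± 0.24 (SE, limma adjusted p = 0.206).

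In both of these genes WT replicates 1 and 9 were high and WT replicates 3 and 11 low. Actr10 and Timm9 showed no such split among the WT libraries, whose Timm9 values all lay between 18.8 and 20.7 CPM. Dhrs7, a dehydrogenase/reductase 1.51 Mb away, was measured at 17.6 ± 3.59 CPM in KO (SD, n = 5) and 11.1 ± 1.75 CPM in WT (SD, n = 4), with a log2 difference of 0.65 ± 0.16 (SE, limma adjusted p = 0.219). Its WT libraries had the same order with a smaller gap. WT replicates 1 and 9 were at 11.8 and 13.2 CPM, and WT replicates 3 and 11 at 10.2 and 9.23 CPM. The kinase gene Cdkl1, with 0.25 (limma adjusted p = 0.688), and Syne2, a nuclear envelope protein, with 0.37 (limma adjusted p = 0.594), had smaller differences. Of these 5 genes, only Syne2 had groups that overlapped. The others, like Actr10 and Timm9, were higher in each KO library than in each WT library.

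The proteins encoded by the 4 genes work in complexes, so the genes of those complexes were counted in the same fit. In none of the 4 lists did a gene pass the adjusted threshold, with or without replicate 10. Over all genes the share was 0.286% with it and 0.606% without it. A p that misses the threshold does not show that a gene did not differ.

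Of 27 dynein and dynactin genes, 3 had an unadjusted p under 0.05 (11.1%, against 6.5% of all genes). All 3 were lower in KO, in the direction opposite to Actr10. They were the dynein light chains Dynll1, with a log2 difference of -0.20 (limma adjusted p = 0.596), and Dynlt3, with -0.23 (limma adjusted p = 0.693), and the dynactin subunit Dctn3, with -0.23 (limma adjusted p = 0.725). Dynll1 was measured at 118, 124, 121, 112 and 111 CPM in KO and at 137, 135, 146 and 121 CPM in WT, so that only WT replicate 11 fell within the KO range. Without replicate 10, 4 genes had an unadjusted p under 0.05 (14.8%, against 10.5% of all genes), all lower in KO. The median over the list was -0.02 with 13 genes above 0, and -0.02 with 11 above 0 without replicate 10, while the median of all genes was 0.0009. The genes of the list with the highest mean CPM, a level not corrected for length, were the dynein heavy chain Dync1h1, at 0.12 ± 0.11 (SE) and at 0.00 without replicate 10, and the dynein regulator Pafah1b1, at -0.02 ± 0.06 (SE). The dynactin filament subunits Actr1a and Actr1b, which like Actr10 are actin-related proteins, had 0.00 and 0.04.

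Of 26 mitochondrial import genes, 2 had an unadjusted p under 0.05 (7.69%, against 6.5% of all genes), both higher in KO as Timm9 was. Tomm7, a small subunit of the outer membrane translocase, had a log2 difference of 0.50 (limma adjusted p = 0.559), and without KO replicate 10 it had 0.36. Timm10b, a small chaperone of the same family as Timm9, was measured at 25.6, 20.4, 21, 21.4 and 18.9 CPM in KO and at 20.2, 14.8, 17.2 and 17.6 CPM in WT, with a log2 difference of 0.30 (limma adjusted p = 0.693). With all libraries the groups overlapped in both genes. Timm10, the direct partner of Timm9, had 0.02 at a mean of 6.8 CPM. Its value in replicate 10 lay 0.79 above the mean of the other KO libraries on the log2 scale. Timm22, the carrier translocase to which the pair delivers, had -0.21 (limma adjusted p = 0.798). Tomm20 and Tomm70a, the import receptors and the genes of the list with the highest mean CPM, had 0.00 and 0.04. The median over the list was 0.02, with 15 genes above 0 (57.7%). Without replicate 10 the median was -0.04, with 9 genes above 0 (34.6%). In that fit 3 genes had an unadjusted p under 0.05 (11.5%, against 10.5% of all genes), 2 of them higher and 1 lower in KO. Groups then did not overlap in 2 of the 26 genes, against 6.06% of all genes. These were Timm10b, higher in KO, and Timm22, lower in KO.

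Of 44 proteasome genes, none had an unadjusted p under 0.05 and 37 (84.1%) had a log2 difference above 0, against 50.4% of all genes. Without replicate 10 the number above 0 was 16 (36.4%), against 49.3% of all genes, and the list median went from 0.08 to -0.03. In that fit 1 gene, lower in KO, had an unadjusted p under 0.05 (2.27%, against 10.5% of all genes). Replicate 10 was the highest of the 9 libraries in 33 of the 44 genes (75.0%), compared with 30.1% of all genes. Its median difference from the other KO libraries was 0.55 on the log2 scale, close to the 0.60 of Psma3. The base subunit Psmc1 reached 151 CPM in replicate 10 where the other KO libraries held 64.7 to 70.1 CPM, and the lid subunit Psmd7 reached 53.9 CPM where they held 41.8 to 51.3 CPM. Psmg1, an assembly chaperone, had the smallest p of the list, with a log2 difference of 0.43 (limma adjusted p = 0.789), and 0.22 without replicate 10. The regulatory subunits Psmd1 and Psmd2, those with the highest mean CPM in the list, had 0.03 and 0.10.

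Of 17 genes of the SIN3 histone deacetylase complexes and RB, 1 had an unadjusted p under 0.05 (5.88%), with or without replicate 10. Over all genes the share was 6.5% with it and 10.5% without it. The median over the list was 0.08 with 12 genes above 0, and 0.02 with 11 above 0 without replicate 10. The gene with all libraries was Sinhcaf, a SIN3 complex subunit, measured at 6.3 ± 1.56 CPM in KO (SD, n = 5) and 3.88 ± 1.15 CPM in WT (SD, n = 4), with a log2 difference of 0.70 (limma adjusted p = 0.589). Replicate 10 was the highest library in 12 of the 17 genes (70.6%), and its median difference from the other KO libraries was 0.26, below the 0.43 of Arid4a. Arid4b, the paralogue of Arid4a, was measured at 142 ± 6.8 CPM in KO (SD, n = 5) and 141 ± 3.24 CPM in WT (SD, n = 4), and its replicate 10 value of 148 CPM was near those of the other libraries. Ing2 and Suds3, with 0.30 and 0.16, had 0.09 and 0.03 without replicate 10. Sin3b, a scaffold of the complex and the gene of this list with the highest mean CPM, had 0.11. Replicate 10 was the highest library in 13 of 26 mitochondrial import genes (50%) and 12 of 27 dynein and dynactin genes (44.4%), with median differences of 0.20 and 0.04. Whether the depth or the conflicting labels of replicate 10 have a part in these values was not tested.

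**Figure D4:**
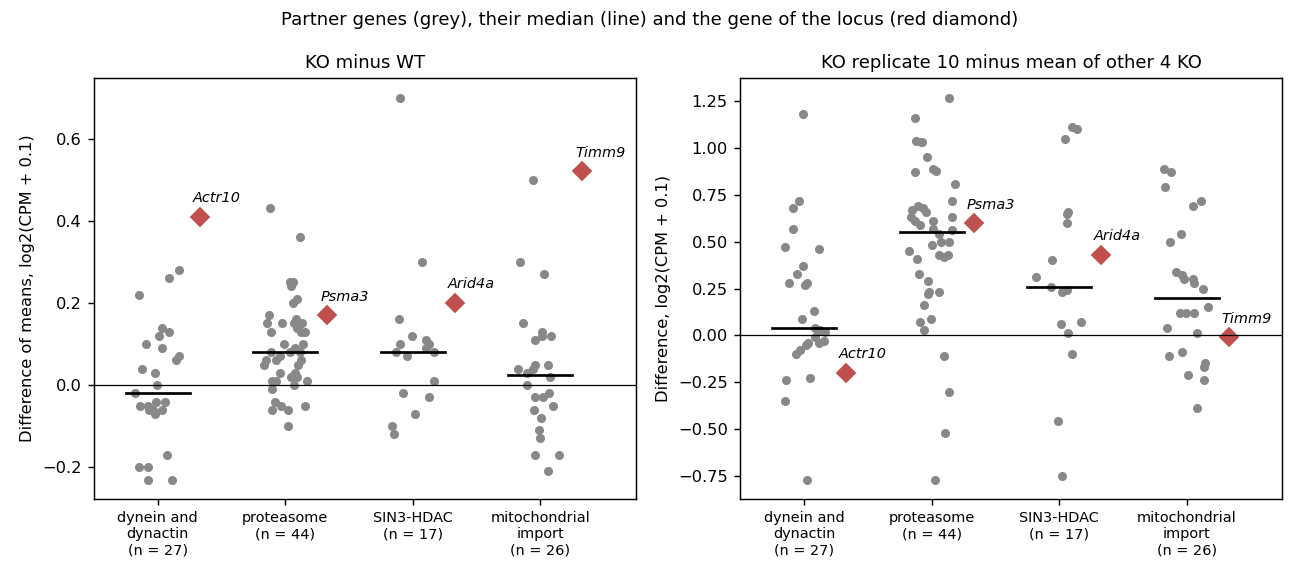
Left, KO minus WT difference on the log2(CPM + 0.1) scale for the genes of the 4 lists; right, the value of KO replicate 10 minus the mean of the other 4 KO libraries on the same scale. Grey points are genes, lines are list medians and red diamonds the gene of the locus, and on the right the proteasome median of 0.55 lies near Psma3 at 0.60, while Actr10 lies at -0.20 and Timm9 at -0.01.

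Genes with the most similar profiles over the 9 libraries were ranked by the root mean square difference of centred log2 values, among the 12071 other genes that averaged 5 CPM or more. This ranking follows the KO against WT difference on which Actr10 and Timm9 were chosen, so the genes it finds differ between the groups by construction. Nearest to Actr10 were Samd1 on chromosome 8 (0.0725), Apbb1ip on chromosome 2 (0.0841) and Tepsin on chromosome 11 (0.0924), against a median of 0.273 over all genes. Nearest to Timm9 were the zinc-finger gene Zfp28 on chromosome 7 (0.0905), Gm2026 on chromosome 2 (0.0909) and the DNA repair helicase Ercc2 on chromosome 7 (0.0964), against a median of 0.309. Samd1 was measured at 20.7, 20.3, 18.5, 20.3 and 17.7 CPM in KO and at 15.5, 14.8, 16.4 and 15.8 CPM in WT, with its lowest KO value in replicate 10 as for Actr10. Zfp28 was measured at 24.2, 25.0, 26.7, 23.9 and 26.3 CPM in KO and at 19.8, 19.1, 17.4 and 19.3 CPM in WT, with its lowest WT value in replicate 9 as for Timm9.

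Ranks among the genes of the locus follow from the same choice, since Actr10 and Timm9 were known to be higher in KO. They are given as a description only. Actr10 and Timm9 differed from each other by 0.118, which made Timm9 the 15th gene from Actr10 and Actr10 the 8th from Timm9. The genes between them stood lower in these rankings. Psma3 stood at 5986 and Arid4a at 3328 from Actr10, and they stood at 2189 and 759 from Timm9. The gene 2700049A03Rik, which starts beside Timm9, stood at 2635 from it. Over the 8 libraries without KO replicate 10, Timm9 stood at 7 from Actr10 and Actr10 at 5 from Timm9. Psma3 and Arid4a then stood at 1465 and 1351 from Actr10 and at 2033 and 1170 from Timm9. Dhrs7, 1.51 Mb away, came nearer than these over the same 8 libraries, at 70 from Actr10 and 117 from Timm9. Over all 9 libraries Dhrs7 stood at 6662 from Actr10 and 1113 from Timm9.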

How the data were processed

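Hypothalamic RNA sequencing libraries of 9 mice, 5 Clic1 KO and 4 WT, were analysed. RNA with an integrity number over 8 was used by the authors. They trimmed reads with Trimmomatic 0.38 after FastQC 0.11.8, aligned them to GRCm38.p6 with STAR 2.5.1a and estimated counts with RSEM 1.3.0 on Ensembl release 98. The authors kept genes reaching 1 CPM in 5 or more samples and scaled libraries by TMM factors in edgeR. What they deposited is a signal in CPM normalized by these factors, whose columns sum to 0.988 M to 1.03 M. Values up to 2.5 CPM were whole multiples of 1 read, within 0.03 reads, in 81.0% to 86.5% of cases, so depths were estimated from these steps and no count test was run. There was 1 column that matched no sample and was not used. From the authors' deposited table of their own comparison (fold changes, moderated scores and p-values), gene symbols were taken and nothing else.

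The fit used limma 3.58.1 (lmFit and eBayes with trend) under R 4.3.3 on log2(CPM + 0.1), with no term besides condition. P-values were adjusted by the Benjamini-Hochberg method across the 14351 genes, with 0.05 as the threshold. Each p measures the spread between these mice, and intervals of 95% come from the same fit. Estimated reads and their CV cover counting error only. The script was first tested on simulated data with known changes. With 200 genes changed by 0.5, 1.0 or 2.0 on the log2 scale, 38.0%, 83.0% and 97.0% of them passed the threshold. False calls made up 7.32%, 4.05% and 8.06% of the calls in the same order. Gene positions and transcripts came from GENCODE mouse release 21 on GRCm38, which placed 14336 genes. Transcripts were compared with blastn 2.17.0 and called near-identical from 95% identity over 300 nt or more that cover 30% or more of the shorter one. In the SIN3 list Fam60a was matched under its current symbol Sinhcaf.

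The 4 genes, the lists and the alternatives were chosen with earlier results of these data known. Besides the 4 genes and Clic1, the genes named were the 2 nearest measured neighbours on each side, the 3 with the smallest p and the 2 with the highest mean CPM in each list, and the 3 nearest in profile to Actr10 and to Timm9. Genes within 5 Mb with an unadjusted p under 0.05, and single members of the lists such as Timm10, Actr1a and Actr1b, were named after their values were seen. Alternatives were other pseudocounts, scalings, filters, variance models, windows and thresholds, sample weights, replicate 10 as WT, and each library left out. Profile ranks without KO replicate 10 were added after seeing the data.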

Additional observations from a re-analysis of the deposited data

Results flagged for a closer look

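Values of the named genes were examined for single libraries far from the rest of their group by Dixon's criterion at 95%, in 80 groups of 4 or 5 libraries. It marked 15 values where chance would give about 4, and 12 of the 15 were in KO replicate 10.

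Of the 4 genes of the locus, Psma3 at 123 CPM in KO replicate 10 (other KO libraries 77.5 to 84) and Arid4a at 96.7 CPM (70.3 to 73.5) stood apart, whereas no library of Actr10 or Timm9 did. In the same library the proteasome genes Psmc1 at 151 CPM (64.7 to 70.1), Psmd1 at 216 CPM (155 to 167), Psmd2 at 199.8 CPM (126 to 132) and Psmg1 at 19.5 CPM (8.44 to 10.8) were above the other KO libraries. So were the SIN3 complex genes Ing2 at 27.1 CPM (10.9 to 15.0), Suds3 at 108 CPM (65.9 to 72.0) and Sin3b at 203 CPM (147 to 159). The dynein heavy chain Dync1h1 at 1991 CPM (1309 to 1396) and the import genes Tomm7 at 32.0 CPM (18.5 to 20.5) and Tomm70a at 263 CPM (205 to 222) completed the values in KO replicate 10. The other values came from WT libraries. Tomm7 was at 19.0 CPM in WT replicate 9 (other WT libraries 13.8 to 14.4), Tomm70a at 226 CPM in WT replicate 3 (213 to 214) and Psmd7 at 47.4 CPM in WT replicate 11 (41.0 to 41.9).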

How the results depend on the processing

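Of 56 recalculated differences of the 4 genes, 53 moved by less than the spread between replicates. For Psma3 and Arid4a that spread, 0.205 and 0.168 as an SD on the log2 scale, includes KO replicate 10 and is widened by it. Their moves without that library, from 0.17 to 0.05 and from 0.20 to 0.12, are therefore among the 53. The exceptions came with replicate 10 grouped as WT, which gave 0.42 for Timm9, 0.01 for Arid4a and -0.08 for Psma3, the last in the opposite direction. The count of genes called over the whole table, 41, was 27 with a mean of at least 5 CPM required, 135 with sample weights and 5 with replicate 10 as WT, and 18 (without WT replicate 1) to 87 (without KO replicate 10) with single libraries left out. The 4 lists and the neighbours within 1 Mb gave 0 calls in 93 of 94 recalculations, and 1 call in a window of 5 Mb without KO replicate 10, an alternative added after seeing the data. Among 31 other named genes, 526 recalculations gave 6 lost and 5 gained calls and no called gene with the opposite sign, while 14 genes without a call changed sign in 29. The 6 lost calls were of Clic1 and Gm2026. No other gene of the 31 had a call in the main fit, so most of the 526 recalculations had no call to lose. For Clic1 the limma adjusted p over libraries left out was 0.00494 to 0.0893, and 0.501 with replicate 10 as WT. The cause was not tested. The median of all genes stayed between -0.0044 and 0.0025 under every setting. No paired analysis was run, because the litter of each mouse is not given in the sources used here. The KO and WT libraries also share no replicate number. The lowest depth, 5.47 M reads, and the 143 reads behind the lowest Timm9 value limit the precision of single libraries.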
